A study of Homo sapiens with 12 samples.

Results

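The mRNAs of 10 genes of transforming growth factor-beta (TGF-beta) and bone morphogenetic protein (BMP) signalling were examined in A375 cells, a human melanoma cell line with an activating BRAF mutation. They encode the ligands TGFB1, TGFB2 and BMP4, the receptor TGFBR2, the inhibitory proteins SMAD6 and SMAD7, and the inhibitor of DNA binding (ID) proteins ID1, ID2, ID3 and ID4. They were taken by gene symbol, 10 of the 44659 genes in the table of counted reads, by a rule that uses no measured value, though earlier results of these data were known when the genes were chosen. Of the 10 genes, 8 had a mean normalised count of at least 10 and were tested, while ID3 and TGFB2 were not.

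TGF-beta and BMP ligands are secreted proteins that bring type I and type II receptor kinases together on the cell surface. The activated type I receptor phosphorylates receptor-activated SMADs, which join SMAD4 and enter the nucleus to regulate genes, and SMAD6 and SMAD7 are induced by the pathway and inhibit it. ID genes are classical BMP targets whose proteins bind E proteins, a class of helix-loop-helix transcription factors, and keep them from DNA. Melanoma cells secrete TGF-beta ligands.

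Cells were grown for 24 h in 1 of 4 conditions, with 3 libraries each. The MAPKi group received 500 nM vemurafenib, a BRAF inhibitor, together with 500 nM cobimetinib, a MEK inhibitor, and its controls received the solvent DMSO. The Gln-depleted group was grown in medium without glutamine, and its controls in CTRL medium with 2 mM glutamine. The 2 experiments were sequenced in separate batches and share no control libraries, so that batch and experiment cannot be told apart where they are compared. In the glutamine experiment, replicate 1 of both groups came from experimental batch 1 and replicates 2 and 3 from experimental batch 2. A375 is a single cell line, and nothing in the labels says whether replicates were separate cultures, so the p-values measure only the spread between these libraries, which may be technical. The labels describe RNA of the cytoplasm, depleted of ribosomal RNA.

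Between 31056296 and 40071368 reads were counted per library. Of 10 melanoma and melanocyte markers, all were detected, and their summed level was between 1536 and 1648 with DMSO, in reads relative to the library total (CPM), and between 9022 and 11354 with MAPKi, against 1147 to 1396 in CTRL medium and 775 to 855 after glutamine depletion. Most of the rise with MAPKi was in DCT, which went from between 160.0 and 240.0 CPM to between 7006 and 9261 CPM, while the other 9 markers summed to 1356 to 1448 CPM with DMSO and 2016 to 2094 CPM with MAPKi. Against no change, 8 of the 10 markers rose with MAPKi, where 39.8% of all genes rose and 38.1% fell. S100B fell by 2.12 on the log2 scale (SE 0.06, edgeR adjusted p = 2.06e-09). On glutamine depletion MITF fell by 2.33 (SE 0.30, adjusted p = 0.00289), and the other 8 tested markers did not pass. With the replicate number as a block, DCT (-0.95), PMEL (-0.78), S100A1 (-0.46) and S100B (-0.39) fell too, with edgeR adjusted p from 0.00412 to 0.0458. SOX10, PAX3, TYR and TYRP1 did not pass with this block, where 48.5% of all genes passed. The part of these shifts in the results below was not tested. The epithelial marker KRT5 and the T-cell marker CD3E had no reads, the endothelial markers PECAM1 and CDH5 at most 1 read in any library. The 4 epithelial markers summed to at most 0.7 CPM and the 4 immune markers to at most 2.05 CPM in any library. The 3 endothelial markers, nearly all of it VWF, summed to 4.37 to 4.99 CPM with DMSO, 8.13 to 9.12 with MAPKi, 2.09 to 5.32 in CTRL medium and 3.53 to 6.51 without glutamine, and the 4 fibroblast and mural markers to 20.4 to 26.6, 24.3 to 26.6, 15.5 to 24.7 and 9.87 to 11.7 CPM. Of the latter, PDGFRB (1.87, edgeR adjusted p = 4.5e-07) and COL1A1 (0.84, adjusted p = 0.00392) rose with MAPKi and LUM fell (-0.68, adjusted p = 0.000655). On glutamine depletion LUM fell (-2.21, adjusted p = 0.00467). COL1A1 (-1.39, adjusted p = 0.0215) and PDGFRB (0.79, adjusted p = 0.0211) passed there only with the block. The part of these markers of other cell types in the results was not tested either. DUSP6, a target gene of the MAPK pathway, fell by 9.52 on the log2 scale with MAPKi (SE 0.13, edgeR adjusted p = 1.18e-10), and CHAC1 and TRIB3, which are induced when amino acids are short, rose by 3.34 (SE 0.34, adjusted p = 0.00131) and 3.19 (SE 0.21, adjusted p = 0.000508) on glutamine depletion.

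The DNA before 4 of the genes is shown because their directions are set against each other below: SMAD6 and SMAD7 went in opposite directions in both experiments, ID1 rose with MAPKi and ID4 fell in both. Each sequence is the 250 bases before a RefSeq start site, read 5′ to 3′ on the strand of the gene, on GRCh38.p14. Capitals mark GTCTAGAC, the palindromic SMAD box, GGCGCC, a GC-rich site bound by SMADs in BMP-responsive elements, and CANNTG, the E-box bound by E proteins, each searched on both strands. The windows lie at chr15:66701986-66702235 on the plus strand (SMAD6), chr18:48950966-48951215 on the minus strand (SMAD7, the most upstream of 3 start sites), chr20:31605039-31605288 on the plus strand (ID1) and chr6:19837120-19837369 on the plus strand (ID4).
SMAD6: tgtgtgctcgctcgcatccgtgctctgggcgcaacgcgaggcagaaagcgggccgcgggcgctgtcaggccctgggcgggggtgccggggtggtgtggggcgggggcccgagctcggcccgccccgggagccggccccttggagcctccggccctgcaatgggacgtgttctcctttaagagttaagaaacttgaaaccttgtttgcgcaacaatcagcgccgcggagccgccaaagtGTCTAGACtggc
SMAD7: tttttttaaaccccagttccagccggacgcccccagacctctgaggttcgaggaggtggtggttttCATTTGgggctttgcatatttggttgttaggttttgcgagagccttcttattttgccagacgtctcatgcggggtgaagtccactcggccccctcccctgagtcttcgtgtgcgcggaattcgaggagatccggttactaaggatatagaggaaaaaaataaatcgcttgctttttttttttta
ID1: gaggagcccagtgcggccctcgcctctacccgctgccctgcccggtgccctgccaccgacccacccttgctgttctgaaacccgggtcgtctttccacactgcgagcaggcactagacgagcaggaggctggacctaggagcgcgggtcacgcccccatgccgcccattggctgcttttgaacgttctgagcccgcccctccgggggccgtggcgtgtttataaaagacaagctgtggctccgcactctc
ID4: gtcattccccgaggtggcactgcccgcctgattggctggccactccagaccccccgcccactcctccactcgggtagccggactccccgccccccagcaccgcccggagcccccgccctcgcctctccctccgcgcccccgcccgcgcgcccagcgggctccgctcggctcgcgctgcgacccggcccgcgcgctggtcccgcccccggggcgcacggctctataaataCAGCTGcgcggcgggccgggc

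SMAD6 held the palindromic box GTCTAGAC, 12 to 5 bases before its start site. Of 35116 windows of the same length, 64 held it (0.182%), and of the windows of the 10 genes it was found in that of SMAD6 alone. The shorter SMAD site CAGAC was found in 38.0% of all windows, the GC-rich site GGCGCC in 16.4%, the E-box in 61.8%, the CCAAT box (letters CCAAT) in 32.0% and the TATA box (letters TATAAA) in 10.7%. The ID1 window held 1 CCAAT box and 1 stretch, tttataaa, that matched the TATA box letters once on each strand. The window of ID2 held 1 E-box and 3 CCAAT boxes. The ID2 window, chr2:8681806-8682055, lies inside the span that GENCODE gives for the gene, chr2:8678845-8684461. The ID4 window held 1 E-box, 1 CCAAT box, 1 TATA box and 1 CAGAC. In the most upstream window of SMAD7, 2 CAGAC and 1 E-box were found. Such matches describe the letters only. DNA outside these windows was not searched, so a motif not found here may still lie elsewhere near a gene.

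**Figure D1:**
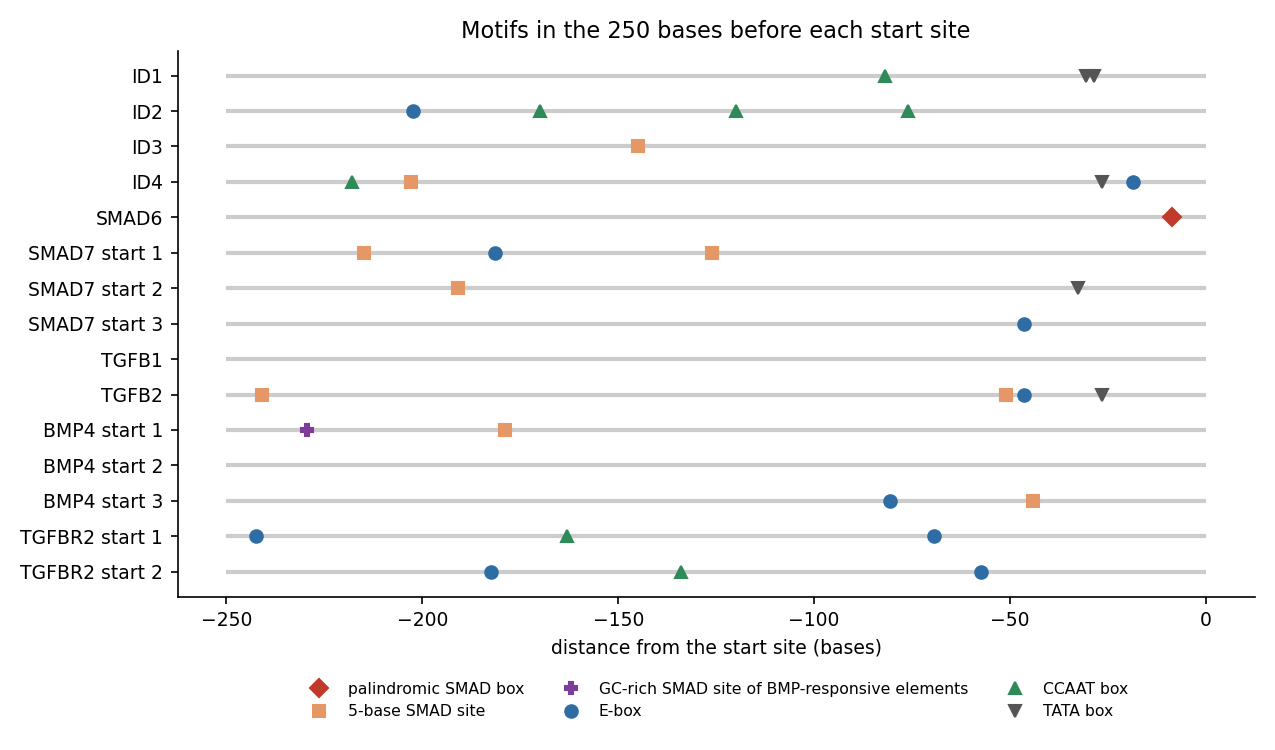
Positions of 6 motifs in the 250 bases before each RefSeq start site of the 10 genes, in bases from the start site, with each line standing for a start site and each symbol for a match on either strand. The red diamond of the palindromic SMAD box stands on the line of SMAD6, next to its start site, and on no other line.

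With MAPKi, 7 of the 8 tested genes were regulated past 1.5-fold, 5 of them upregulated (ID1, ID2, SMAD6, TGFB1 and TGFBR2) and 2 downregulated (ID4 and SMAD7), while BMP4 did not pass the test. Among all 12593 protein-coding genes tested, 35.6% passed the same test, 17.5% upregulated and 18.1% downregulated. Against no change, 5 of the 8 genes rose and 2 fell, where 78.0% of all genes passed, 39.8% upwards and 38.1% downwards. The median log2 fold change was 0.94 over the 8 genes and 0.02 over all genes tested. The 3 MAPKi libraries lay outside the range of the 3 DMSO libraries for 7 of the 8 genes, as they did for 80.8% of all genes (41.0% higher and 39.7% lower). Here and below, genes called up- or downregulated passed edgeR's test against a fold change of 1.5 (0.585 on the log2 scale), and genes said to have risen or fallen passed its test against no change, where the p-value, adjusted after Benjamini and Hochberg over every gene of the fit, did not exceed 0.05 in either case. In bulk RNA, a change in the number of cells that express a gene and a change in its RNA per cell cannot be told apart.

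With glutamine depletion, SMAD7 was upregulated past 1.5-fold, ID4 and SMAD6 fell against no change, and the other 5 genes did not pass. Of 12510 genes tested, 5.42% passed the test past 1.5-fold (3.50% upregulated, 1.92% downregulated) and 17.7% that against no change (9.73% upwards, 7.94% downwards). The groups did not overlap for 5 of the 8 genes, 2 higher and 3 lower, against 39.7% of all genes, 20.8% higher and 18.9% lower. The median log2 fold change was -0.66 over the 8 genes and 0.02 over all genes tested. Libraries with the same replicate number deviated together in this experiment, and with the replicate number as a block the spread was smaller: 7 of the 8 genes then passed against no change, 2 upwards and 5 downwards, and 3 passed 1.5-fold, SMAD7 upwards and ID4 and SMAD6 downwards. Under the same block 48.5% of all genes passed against no change and 16.4% past 1.5-fold. The log2 ratio of the depleted to the CTRL library of the same number (pseudocount 0.5) was -1.19 for ID4, -1.87 for SMAD6 and 1.44 for SMAD7 in experimental batch 1. In experimental batch 2 it was -2.54 and -1.68, -2.56 and -1.13, and 1.63 and 1.15 in the same order.

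**Figure D2:**
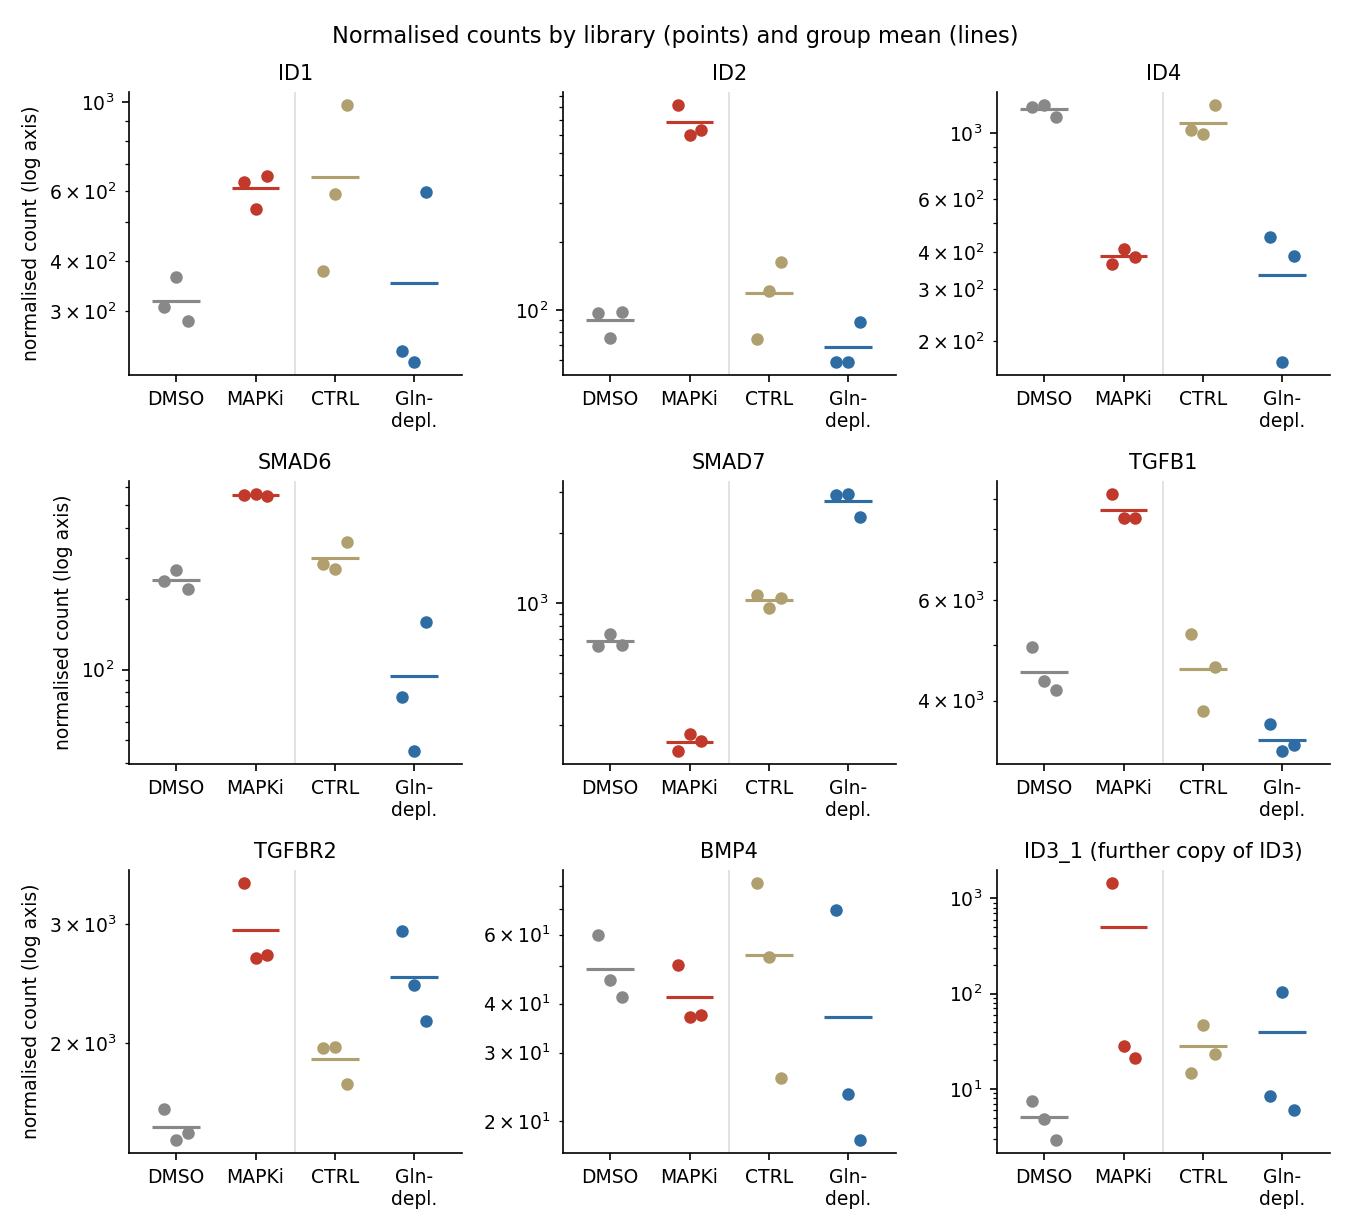
Normalised counts of the 8 tested genes and of the further row for ID3 in each library (points, in the order of replicates 1 to 3) with the group means (lines), on log axes that differ between panels. ID2 lay between 75.5 and 97.7 in the DMSO libraries and between 600.1 and 818 in the MAPKi libraries, and the point far above the others in the last panel is MAPKi replicate 1 at 1454.

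TGFB1 (ENSG00000105329, chr19:41301587-41353922, minus strand), the ligand that gives the pathway its name, was the most abundant of the 10 mRNAs. Its normalised counts, that is reads scaled to the mean effective library size of the experiment, were 4971, 4327 and 4169.9 in the DMSO libraries (replicates 1 to 3) and 9206, 8343 and 8338 in the MAPKi libraries. All MAPKi libraries were above all DMSO libraries, and the log2 fold change was 0.94 (SE 0.07, edgeR adjusted p = 1.67e-06). On glutamine depletion, the counts were 5231, 3835 and 4582 in CTRL medium and 3644, 3261 and 3344 without glutamine. All 3 depleted libraries were lower, but the log2 fold change of -0.41 (SE 0.19, 95% confidence interval -0.85 to 0.02) did not pass (edgeR adjusted p = 0.161). With the replicate block it was -0.40 (adjusted p = 0.0256). The gene shares 6.6% of its exon bases with HNRNPUL1 on the opposite strand, and whether reads were counted by strand is not given in the sources used here.

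BMP4 (ENSG00000125378, chr14:53949736-53958761, minus strand), a ligand of the BMP branch, was low in every group. Its normalised counts were 59.7, 46.1 and 41.6 with DMSO and 50.3, 37.0 and 37.4 with MAPKi, and the groups overlapped. The log2 fold change was -0.24 (SE 0.23, 95% confidence interval -0.76 to 0.28, edgeR adjusted p = 0.362). In CTRL medium the counts were 81.4, 52.5 and 25.9, and without glutamine 69.3, 23.5 and 17.9. Replicate 1, from experimental batch 1, was the highest library of both groups. The log2 fold change was -0.52 (SE 0.61, 95% confidence interval -1.92 to 0.87, edgeR adjusted p = 0.578), an interval that takes in changes of more than 1.5-fold either way. BMP4 shares 16.3% of its exon bases with a gene on the opposite strand. TGFB2 (ENSG00000092969, chr1:218345336-218444619, plus strand), another TGF-beta ligand, had between 1 and 6 reads in each of the 12 libraries, too few for a comparison.

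TGFBR2 (ENSG00000163513, chr3:30606601-30694142, plus strand) is the type II receptor that binds TGF-beta. Its normalised counts were 1599, 1437 and 1472 with DMSO and 3448, 2667 and 2694 with MAPKi. The groups did not overlap, and MAPKi replicate 1 was the highest. TGFBR2 rose by 0.97 on the log2 scale (SE 0.10, edgeR adjusted p = 1.1e-05). In the other experiment the counts were 1967, 1973 and 1742 in CTRL medium and 2926, 2441 and 2153 without glutamine. All 3 depleted libraries were higher, with a log2 fold change of 0.40 (SE 0.19, 95% confidence interval -0.04 to 0.85) that did not pass (edgeR adjusted p = 0.175) and that passed with the replicate block (0.40, adjusted p = 0.0295).

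SMAD6 (ENSG00000137834, chr15:66702236-66782849, plus strand) and SMAD7 (ENSG00000101665, chr18:48919853-48950965, minus strand) encode the inhibitory SMADs. SMAD6 acts mainly on the BMP branch and SMAD7 on both branches. SMAD6, whose window carries the palindromic box above, had normalised counts of 238, 267 and 221 with DMSO and 555, 559.8 and 549.95 with MAPKi. The groups were far apart, and SMAD6 rose by 1.20 on the log2 scale (SE 0.08, edgeR adjusted p = 9.1e-07). The CTRL medium libraries had 282, 267 and 349.8, and without glutamine 76.7, 45.0 and 159.9. All depleted libraries were lower, with a spread of more than 3-fold among them. SMAD6 fell by 1.68 on the log2 scale (SE 0.44, edgeR adjusted p = 0.0359). This call was lost without any 1 of CTRL medium replicates 1, 2 and 3 and Gln-depleted replicates 1 and 2 (log2 fold changes from -1.75 to -1.34, edgeR adjusted p from 0.0507 to 0.103), and without Gln-depleted replicate 3 the log2 fold change was -2.33 (adjusted p = 0.0158). With the replicate block SMAD6 was downregulated past 1.5-fold (-1.83, adjusted p = 0.0094 in the test past 1.5-fold).

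SMAD7 moved the other way in each experiment. Its normalised counts were 654, 741 and 659.8 with DMSO and 231, 275 and 257 with MAPKi, and it fell by 1.43 on the log2 scale (SE 0.09, edgeR adjusted p = 3.56e-07). In CTRL medium the counts were 1081, 954 and 1051, and without glutamine 2925, 2946 and 2335. SMAD7 thus rose by 1.41 on the log2 scale (SE 0.19, edgeR adjusted p = 0.00338), with the groups well apart. Without the block, it was the only 1 of the 8 genes past 1.5-fold on glutamine depletion (edgeR adjusted p = 0.0158 in that test). The call past 1.5-fold was lost without CTRL medium replicate 2, CTRL medium replicate 3 or Gln-depleted replicate 2, where that adjusted p was between 0.0706 and 0.0787, while SMAD7 still passed against no change. With all libraries and the replicate block SMAD7 was upregulated past 1.5-fold (1.40, edgeR adjusted p = 0.00191 in that test).

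ID1 (ENSG00000125968, chr20:31605283-31606515, plus strand), ID2 (ENSG00000115738, chr2:8678845-8684461, plus strand) and ID4 (ENSG00000172201, chr6:19837370-19842197, plus strand) encode small proteins that pair with E proteins but lack a DNA-binding region. ID2 had the largest log2 fold change of the 8 genes with MAPKi. Its normalised counts were 97.1, 75.5 and 97.7 with DMSO and 818, 600.1 and 633 with MAPKi. The groups were far apart, and ID2 rose by 2.92 on the log2 scale (SE 0.15, edgeR adjusted p = 1.02e-07), a fold change of 7.59. ID2-AS1, which shares 6.6% of the exon bases of ID2 on the opposite strand, had a log2 fold change of 0.51 (SE 0.27, edgeR adjusted p = 0.125 in a fit of all genes). The ID2 counts in CTRL medium were 74.6, 121 and 163, and without glutamine 58.8, 58.6 and 88.3. The groups overlapped, and the log2 fold change was -0.81 (SE 0.38, 95% confidence interval -1.67 to 0.06, edgeR adjusted p = 0.171). With the replicate block it was -0.76 (adjusted p = 0.046).

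ID1 had normalised counts of 306, 366 and 283 with DMSO and 633, 539.6 and 654 with MAPKi, without overlap. It rose by 0.94 on the log2 scale (SE 0.11, edgeR adjusted p = 3.83e-05), a call that was lost in a fit of all 12 libraries with a shared estimate of the spread (0.94, adjusted p = 0.0614). In CTRL medium the counts were 377, 590.4 and 985, and without glutamine 238, 223 and 596.5. Replicate 3 was the highest library in both groups, and the groups overlapped. The log2 fold change was -0.89 (SE 0.47, 95% confidence interval -1.96 to 0.19, edgeR adjusted p = 0.216), and with the replicate block -0.93 (adjusted p = 0.00602). The log2 ratio within the replicate numbers was -0.66 in experimental batch 1 and -1.40 and -0.72 in experimental batch 2.

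ID4 was lower under both treatments. Its normalised counts were 1231, 1247 and 1138 with DMSO and 363, 409.8 and 384 with MAPKi, and it fell by 1.64 on the log2 scale (SE 0.07, edgeR adjusted p = 2.08e-08). In CTRL medium the counts were 1026, 993 and 1244, and without glutamine 449, 170.1 and 388. The groups did not overlap in either experiment. On glutamine depletion ID4 fell by 1.70 on the log2 scale (SE 0.35, edgeR adjusted p = 0.0152), a call lost without CTRL medium replicate 3 (-1.59, adjusted p = 0.053). It did not pass 1.5-fold (adjusted p = 0.0517 in that test), and did so with the replicate block (-1.79, adjusted p = 0.00543).

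**Figure D3:**
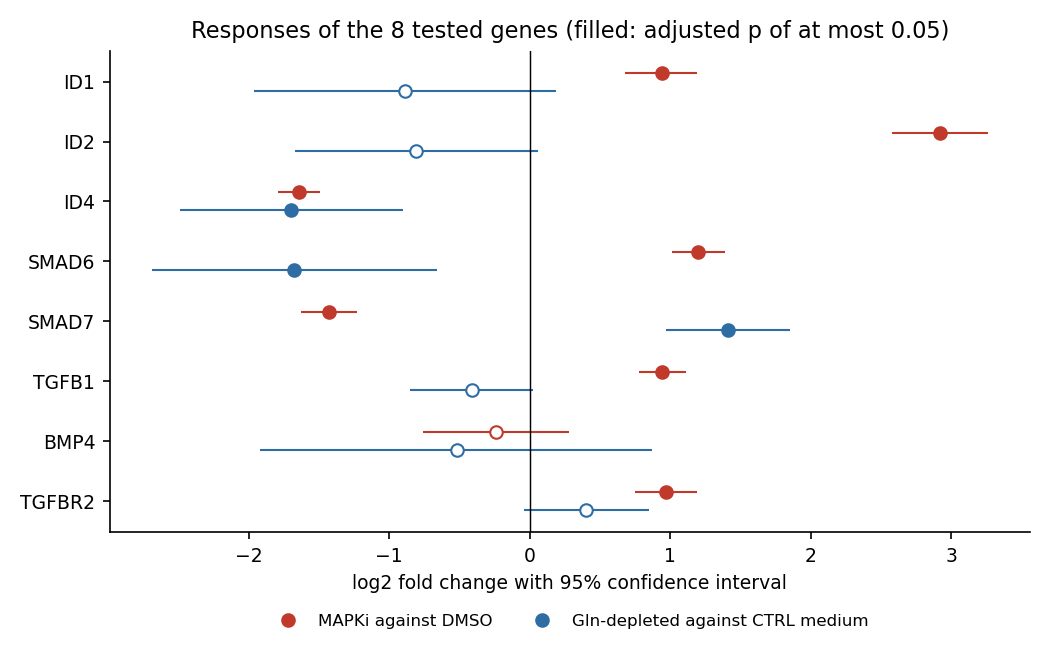
Log2 fold changes of the 8 tested genes with MAPKi (red) and with glutamine depletion (blue), with 95% confidence intervals, filled where edgeR's adjusted p against no change was at most 0.05. The red and blue points of SMAD7 lie at -1.43 and 1.41 and those of SMAD6 at 1.20 and -1.68, while those of ID4 lie together at -1.64 and -1.70.

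ID3 (ENSG00000117318, chr1:23557926-23559501, minus strand) could not be followed. Its row held at most 1 read in any library. A further row of the table named ID3_1 held 7, 5 and 3 reads in the DMSO libraries and 1445, 25 and 24 in the MAPKi libraries. MAPKi replicate 1 stood far above the other 2. In CTRL medium this row held 15, 49 and 26 reads, and without glutamine 8, 107 and 5, where replicate 2 was the highest of both groups. In a fit of all genes, the log2 fold change of this row with MAPKi was 6.60 (SE 1.88, edgeR adjusted p = 0.0123), and without MAPKi replicate 1 it was 2.24 (adjusted p = 0.0026). The row averaged 5.09 normalised counts with DMSO and 501.1 with MAPKi. In both fits it thus passed the filter on low counts through the MAPKi libraries alone, and its fitted change rests on few control reads. Of 2713 genes with such a second row, 125 had under 20 reads in their own row and over 100 in the second. How reads were shared between these rows is not given in the sources used here, so neither row was read as the level of ID3.

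Whether the 2 responses differed was tested by a contrast in a fit of all 12 libraries. Of the 8 genes, 6 differed, as did 40.3% of 12625 genes, 19.4% with a higher and 20.9% with a lower MAPKi response. The MAPKi response was higher than the glutamine response for ID2 by 3.76 on the log2 scale (SE 0.39, edgeR adjusted p = 2.32e-05), for SMAD6 by 2.92 (SE 0.47, adjusted p = 0.000468), for ID1 by 1.86 (SE 0.54, adjusted p = 0.0172) and for TGFB1 by 1.39 (SE 0.19, adjusted p = 0.000143). It was lower for SMAD7, with a difference of -2.80 (SE 0.18, adjusted p = 7.13e-07). TGFBR2 differed by 0.60 (SE 0.21, adjusted p = 0.0357), but not when any 1 of MAPKi replicate 1, DMSO replicates 1, 2 and 3, CTRL medium replicates 1 and 2 and Gln-depleted replicates 2 and 3 was left out (adjusted p from 0.0515 to 0.113). With all libraries and the replicate number as a block within each experiment, TGFBR2 differed by 0.60 (SE 0.12, edgeR adjusted p = 0.00277). In that fit ID1, ID2, SMAD6, SMAD7 and TGFB1 passed too, with adjusted p from 3.08e-06 to 0.000351, and ID4 and BMP4 did not. For ID4 the difference was 0.09 (95% confidence interval -0.73 to 0.91, adjusted p = 0.869) and for BMP4 0.32 (SE 0.71, adjusted p = 0.749). SMAD6 and SMAD7 passed against no change in opposite directions in the 2 experiments, as did 5.11% of the 12289 genes tested in both, and ID4 in the same direction, as did 9.52%.

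Levels were compared between genes as CPM per kb of merged exons. With DMSO, TGFB1 stood at 39.3 ± 3.72 CPM per kb (SD, n = 3), followed by ID4 at 8.90 ± 0.436, ID1 at 7.38 ± 0.993, TGFBR2 at 6.27 ± 0.356 and SMAD7 at 4.96 ± 0.353. ID2 (1.16 ± 0.164), SMAD6 (0.808 ± 0.0777) and BMP4 (0.454 ± 0.0873) were the lowest of the tested genes. In this order, the libraries of ID4 and ID1 and those of ID1 and TGFBR2 overlapped, and the other neighbours did not. The order of close neighbours depended on the length used. Per kb of the longest transcript, TGFBR2 was at 7.42 ± 0.421 and ID1 at 7.38 ± 0.993, and SMAD6 was at 1.33 ± 0.128 and ID2 at 1.26 ± 0.177.

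With MAPKi the order changed, with TGFB1 at 75.6 ± 4.38 CPM per kb (SD, n = 3), ID1 at 14.1 ± 1.41, TGFBR2 at 12.3 ± 1.85, ID2 at 8.83 ± 1.52, ID4 at 2.85 ± 0.172, SMAD6 at 1.86 ± 0.0165, SMAD7 at 1.84 ± 0.160 and BMP4 at 0.384 ± 0.0700. ID1 and TGFBR2 overlapped, as did SMAD6 and SMAD7. ID2 thus moved from below ID4 to above it. Per kb of the longest transcript, TGFBR2 was at 14.5 ± 2.19 and ID1 at 14.1 ± 1.41. By that length SMAD6 was at 3.05 ± 0.0271, ID4 at 2.85 ± 0.172 and SMAD7 at 2.18 ± 0.189.

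In CTRL medium, TGFB1 was at 38.4 ± 5.89 CPM per kb (SD, n = 3) and ID1 at 14.5 ± 6.89, and ID1, ID4 (7.73 ± 0.970), TGFBR2 (7.61 ± 0.529) and SMAD7 (7.18 ± 0.462) each overlapped with the next. ID2 (1.49 ± 0.552) overlapped with SMAD6 (0.964 ± 0.142), and BMP4 was at 0.474 ± 0.247. Without glutamine, SMAD7 at 19.1 ± 2.42 CPM per kb stood second to TGFB1 at 28.8 ± 1.70, above TGFBR2 (10.1 ± 1.57) and ID1 (7.88 ± 4.72), which overlapped. ID4 (2.39 ± 1.04), ID2 (0.853 ± 0.212), BMP4 (0.328 ± 0.251) and SMAD6 (0.302 ± 0.191) were lower, and BMP4 and SMAD6 overlapped. Per kb of the longest transcript, TGFBR2 (9.0 ± 0.626) and SMAD7 (8.48 ± 0.546) stood above ID4 (7.73 ± 0.970) in CTRL medium.

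Of 93 other genes of the pathway, 70 were tested with MAPKi, of which 27 rose and 31 fell, 10 and 16 of them past 1.5-fold. Their median log2 fold change was -0.07. Of all genes tested, 39.8% rose and 38.1% fell, 17.5% and 18.1% past 1.5-fold, shares to set beside each count of these lists. Among ligands, GDF11 was upregulated (1.96, SE 0.06, edgeR adjusted p = 3.14e-09), and BMP6 (-2.66), GDF15 (-1.77), a stress-induced ligand, and BMP8B (-0.81) were downregulated. Of 12 other receptors and co-receptors tested, 7 rose and 3 fell, with the type I receptor ACVRL1 at 2.22, the BMP type II receptor BMPR2 at 1.40 and ACVR2A at 0.88 upregulated and TGFBR1, the type I partner of TGFBR2, at -1.07 downregulated. Of 6 receptor-activated and common SMADs, 5 fell, with SMAD3, which carries the TGF-beta signal, past 1.5-fold (-1.18).

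Binders outside the cell went both ways with MAPKi. FSTL3, which binds activins, was upregulated (2.69, SE 0.08, edgeR adjusted p = 3.09e-09), as was LTBP3, which holds latent TGF-beta (1.19), while the activin antagonist FST was downregulated (-2.93, SE 0.20, edgeR adjusted p = 7.61e-07). NBL1 (-0.94) and BAMBI (-0.89), a pseudoreceptor, were downregulated too. Of 13 intracellular regulators, PMEPA1 was upregulated (0.90) and TGIF1 (-1.18) and STRAP (-0.67) were downregulated.

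Of 14 other TGF-beta target genes tested, 8 rose and 5 fell with MAPKi, where 39.8% of all genes rose and 38.1% fell. The matricellular protein gene CCN2 (-2.60), SNAI1 (-2.17) and ZEB1 (-2.11), which encode transcription factors of epithelial-mesenchymal transition, and TGFBI (-1.34) were downregulated and JUNB (1.17), CDKN1A (1.06), PMEPA1 (0.90) and SNAI2 (0.73) upregulated. Of 8 other BMP target genes, 1 rose and 4 fell, with HEY1 at -2.23 and BAMBI at -0.89 past 1.5-fold. Of the ID genes and inhibitory SMADs, ID1, ID2 and SMAD6 rose and ID4 and SMAD7 fell, as given above. Of 3 E proteins, which the ID proteins bind, TCF3 was downregulated (-1.20) and TCF12 fell (-0.34), and TCF4 was at -0.05 (edgeR adjusted p = 0.475).

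On glutamine depletion, 71 of the 93 genes were tested, of which 12 rose and 9 fell, 7 and 2 of them past 1.5-fold, with a median log2 fold change of 0.13. With the replicate block, 12 were upregulated and 6 downregulated. Of all genes tested, 9.73% rose and 7.94% fell, 3.50% and 1.92% past 1.5-fold, and 16.4% passed 1.5-fold with the block. The ligands INHBE (5.21, SE 0.71), INHBA (3.83, SE 0.74), which encode activin subunits, BMP2 (3.30, SE 0.41) and GDF15 (2.46, SE 0.21) were upregulated, with edgeR adjusted p from 0.000901 to 0.0127. INHBE had 2.94, 18.1 and 1.78 normalised counts in CTRL medium (3, 19 and 2 reads) and 313, 265 and 280.4 without glutamine, so that it passed the filter on low counts through the depleted libraries alone and its fitted change rests on few control reads. Without CTRL medium replicate 2 it was 6.86. INHBA had 3232 normalised counts in Gln-depleted replicate 2 and 449.6 and 689.6 in the other depleted libraries, against 68.7, 116 and 122 in CTRL medium, and without Gln-depleted replicate 2 its log2 fold change was 2.48. Of the target genes, PMEPA1 (2.26, SE 0.37, edgeR adjusted p = 0.00719) and the cell cycle inhibitor CDKN1A (1.5) were upregulated, and so was the corepressor TGIF1 (1.26). The 2 downregulated genes were TGFB3 (-1.41) and SNAI2 (-1.32). Of the receptors, SMADs, extracellular binders, BMP target genes and E proteins tested, those that rose or fell did not pass 1.5-fold in this fit. With the replicate block, ACVR1C (-1.90), FST (1.56), DLX5 (-2.01), RUNX2 (1.20) and TCF4 (-1.42) of these lists did, with adjusted p from 0.00393 to 0.0371 in that test.

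On glutamine depletion, the calls past 1.5-fold of 6 of these genes, INHBA, PMEPA1, TGIF1, CDKN1A, SNAI2 and TGFB3, were lost without single libraries, with adjusted p up to 0.175 in that test, while each gene still passed against no change. They were lost for INHBA without CTRL medium replicate 1, 2 or 3, for PMEPA1 without CTRL medium replicate 2 or Gln-depleted replicate 2 or 3, for TGIF1 without CTRL medium replicate 2 or 3 or Gln-depleted replicate 2 or 3, for CDKN1A without CTRL medium replicate 2 or 3 or Gln-depleted replicate 1 or 2, for SNAI2 without CTRL medium replicate 1, 2 or 3 or Gln-depleted replicate 1 or 2, and for TGFB3 without CTRL medium replicate 1, 2 or 3 or Gln-depleted replicate 2 or 3. The calls of INHBE, BMP2 and GDF15 were kept. With all libraries and the replicate block, INHBA, PMEPA1, TGIF1, CDKN1A, SNAI2 and TGFB3 passed 1.5-fold, with edgeR adjusted p from 0.000477 to 0.0139 in that test. With MAPKi, leaving out 1 library ended 3 calls past 1.5-fold: STRAP without MAPKi replicate 1 or DMSO replicate 1, 2 or 3 (adjusted p up to 0.077), NBL1 without MAPKi replicate 3 or DMSO replicate 3 (up to 0.057) and SNAI2 without MAPKi replicate 3 or DMSO replicate 2 (up to 0.0596).

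**Figure D4:**
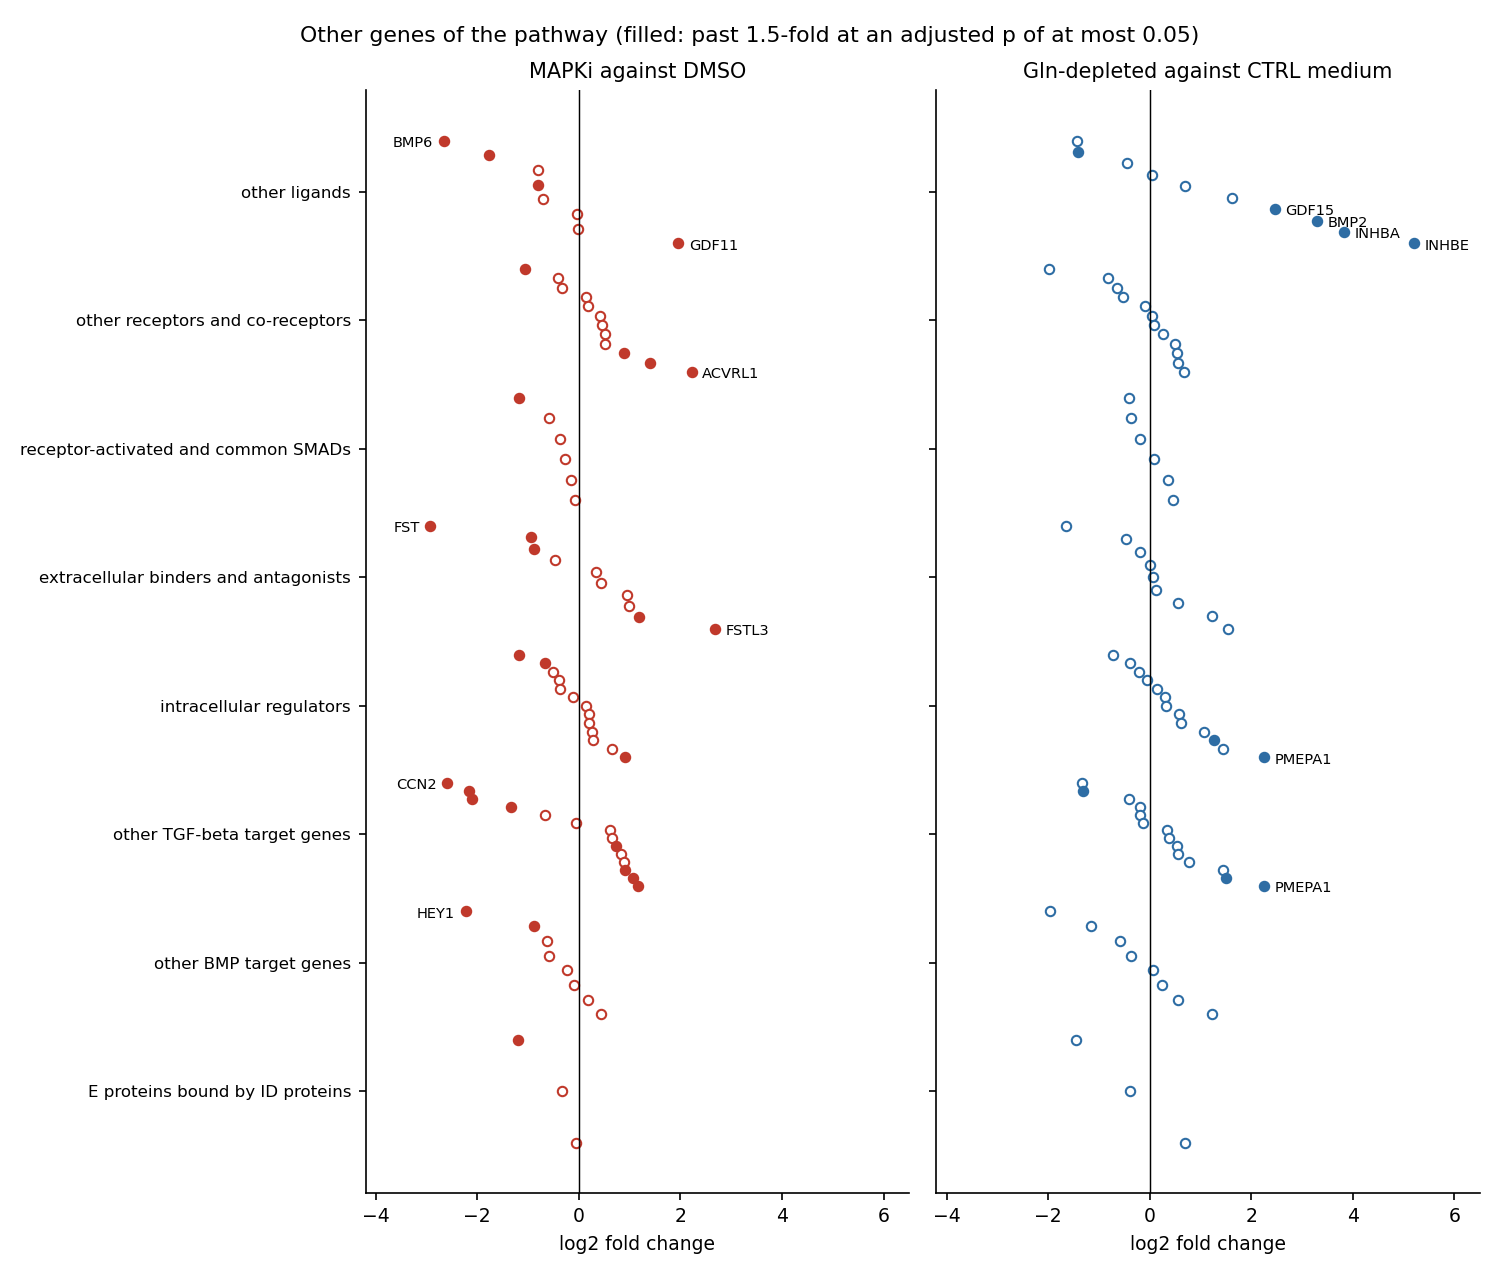
Log2 fold changes of the other tested genes of the pathway, by list, with MAPKi (left) and with glutamine depletion (right), each point standing for a gene and filled where it passed the test past 1.5-fold. FST at -2.93 and FSTL3 at 2.69 stand at opposite ends of the binders with MAPKi, and INHBE at 5.21 and INHBA at 3.83 lie farthest to the right with glutamine depletion, values that moved by more than 1.5-fold when 1 library was left out.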

How the data were processed

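Per the labels and the paper's methods, RNA of A375 cells was sequenced in 2 experiments of 3 libraries per group. The authors trimmed reads with fastp 0.20.1, aligned them to GRCh38.p13 with HISAT2 2.2.1 and deposited raw counts of reads on exons made with HTSeq 0.13.5. The paper's methods used DESeq2. The counts came without coordinates, and strand and multimapping settings are not given in the sources used here.

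Gene symbols were looked up in the reference, where 36524 of 44659 matched, 513 others through a former symbol. Further copies of a gene (5082 rows) were kept apart, and 2540 rows found no match. Protein-coding genes with a mean normalised count of at least 10 were tested separately per experiment by the quasi-likelihood method of edgeR 4.0.16 (R 4.3.3) after TMM scaling, with no term but the treatment, against a fold change of 1.5 and against no change, with Benjamini-Hochberg adjustment over all genes tested at 0.05. Same-numbered libraries deviated together in the glutamine experiment (correlations of deviations 0.386 to 0.584 over 12510 genes) but not with MAPKi (0.056 to 0.070), so the block was read as a pairing in the former only. Scaling, test (DESeq2 1.42.0), threshold, filter, genes tested, libraries fitted, block, batch and left-out libraries were varied.

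The 10 genes and the other lists were chosen with earlier results of these data known. Of the other lists, up to 3 genes per list and experiment were named, those with the largest absolute log2 fold change among genes past 1.5-fold. BMP8B, ACVR2A, NBL1, TGFBI, JUNB, CDKN1A and SNAI2 with MAPKi, GDF15, TGFB3, ACVR1C, FST, DLX5 and RUNX2 with glutamine depletion, and TCF4 and TCF12 were named after their values were seen. A gene of the TGF-beta target list is not reported here and was left out of the counts of that list. Start sites came from RefSeq (GRCh38.p14), where all 10 genes matched, gene positions and exon lengths from GENCODE 44. The script was tested on simulated data.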

Additional observations from a re-analysis of the deposited data

Results flagged for a closer look

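For 6 genes the MAPKi response differed from the glutamine depletion response by the test of the difference itself. The log2 differences (MAPKi minus glutamine depletion) were 1.86 for ID1, 3.76 for ID2, 2.92 for SMAD6, -2.80 for SMAD7, 1.39 for TGFB1 and 0.60 for TGFBR2. The 2 experiments were sequenced in separate batches, so that batch and experiment cannot be told apart in this comparison. Within each experiment, the treated and control libraries shared a sequencing batch.

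The row named ID3_1, which entered no comparison of the 10 genes, held 1445 reads in MAPKi replicate 1, against 7 reads at most in the DMSO libraries. The cause was not tested.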

How the results depend on the processing

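For the MAPKi responses of the 8 genes, directions were kept under each alternative. With a log2 threshold of 1 in place of 1.5-fold, 2 genes were upregulated, and in a fit of all 12 libraries 3. On glutamine depletion, the count of downregulated genes, 0 in the fit reported, was 1 with DESeq2 size factors, with total counts only, with DESeq2's test, with all genes of at least 2 reads and in experimental batch 2 alone. It was 2 without a fold-change threshold, in the fit of all 12 libraries, with the replicate block and with experimental batch as a term. Leaving out 1 library gave 0 to 1 downregulated and 0 to 1 upregulated genes, and a log2 threshold of 1 gave 0 upregulated genes. Of the 8 genes, 5 to 6 differed between experiments when 1 library was left out.

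Of the other genes of the pathway, 14 to 16 were downregulated and 9 to 11 upregulated with MAPKi when 1 library was left out, and 31 were downregulated and 27 upregulated without a threshold, and 11 and 6 at a log2 threshold of 1. On glutamine depletion, 9 were downregulated and 12 upregulated without a threshold, and 0 and 3 at a log2 threshold of 1. With the replicate block 6 were downregulated and 12 upregulated, with total counts only 4 were downregulated, 1 when genes other than protein-coding ones were included, in the fit of all 12 libraries and with the batch term 7, and in batch 2 alone 5. With the batch term and in batch 2 alone, 11 were upregulated. Leaving out 1 library gave 0 to 2 downregulated and 3 to 7 upregulated genes, with 0 and 3 without CTRL medium replicate 2, 0 and 4 without CTRL medium replicate 3, 0 and 4 without Gln-depleted replicate 2, and 1 downregulated without CTRL medium replicate 1. The cause of these changes was not tested, beyond the thresholds' own construction.

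The difference between experiments changed sign for BMP4 (-0.13 without CTRL medium replicate 1) and ID4 (-0.02 without CTRL medium replicate 3, -0.23 without Gln-depleted replicate 2), which had not passed the test. It ranged from -0.13 to 1.16 for BMP4 and from -0.23 to 0.36 for ID4 when 1 library was left out. Total counts moved the median log2 fold change of all genes on glutamine depletion from 0.02 to -0.16 and turned no direction among the 8 genes. The replicate block changed no call of the 8 genes with MAPKi. BMP4, TGFB2 and ID3 are limited by their low counts.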
